A study of Mus musculus with 6 samples.

Results

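Mouse embryonic stem cells with reduced Yaf2 were compared with cells carrying wild-type Yaf2, with the presence of 4-hydroxytamoxifen (OHT) as a covariate. All 6 arrays of the series entered the comparison, 4 from Yaf2kd cells and 2 from Yaf2wt cells. The cells have a 129/B6 hybrid background, and each array held labelled RNA of 1 culture on an Affymetrix mouse chip. The Yaf2kd arrays come from clone 3086 (replicate 1) and clone 3087 (replicate 2), and each clone has 1 array with OHT (OHT+) and 1 without it (OHT-). The Yaf2wt arrays come from clone 3031 alone, again 1 with OHT and 1 without. OHT was given at 0.8 µM for 24 hours to remove Rybp, so 3 of the 6 arrays, 1 of each clone, carry that second change, and the labels call those cells Rybp mutants. The labels describe the Yaf2kd cells both as knockdown and as mutant, and how Yaf2 was reduced is not given in the labels. Wild-type Yaf2 is represented by 1 clone only, so the knockdown and the identity of the clone cannot be told apart in any result that follows. The p-values measure the spread between these 6 cultures, and the cultures of 1 clone are not independent replicates of its Yaf2 state.

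Yaf2 and its homologue Rybp are small zinc-finger proteins that bind the RING subunits of Polycomb repressive complex 1 (PRC1). Complexes with Rybp or Yaf2, called variant PRC1, place ubiquitin on histone H2A, while canonical PRC1 carries CBX and PHC subunits in their place and binds the histone mark set by PRC2. In embryonic stem cells these complexes are known for keeping genes of later development, and genes of germ cells, at low levels.

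The Yaf2 probe sets separated the labelled groups. On the brightest Yaf2 probe set, clone 3086 was at an intensity of 293 without OHT and 297 with it, and clone 3087 at 238 and 278. Clone 3031 was at 816 without OHT and 769 with it. The groups did not overlap, and the Yaf2kd mean of 276.5 ± 27.2 (SD, n = 4) was 34.9% of the Yaf2wt mean of 792.6 ± 33.6 (n = 2). The other Yaf2 probe set was at 237.3 ± 18.1 and 629.5 ± 40.2, which is 37.7%. The log2 difference of Yaf2 (Yaf2kd minus Yaf2wt, OHT adjusted) was -1.52 ± 0.17 (SE). An exact two-sided permutation test over the 15 ways to pick 2 of 6 arrays gave p = 0.0667, the smallest it allows. That test shuffles single arrays, and the 2 arrays of a clone are not independent, so it does not measure the spread between clones. Both probe sets that read Rybp are annotated to Rybp and to its pseudogene together. They separated OHT+ from OHT- arrays and not Yaf2kd from Yaf2wt, with log2 Yaf2 differences of -0.23 ± 0.25 and 0.25 ± 0.21 when limma was run on every probe set (adjusted p = 0.823 and 0.762). One of them was at 1785 to 2262 on the OHT- arrays and at 53.9 to 102 on the OHT+ arrays, and the other at 180 to 336 and 2796 to 3443.

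**Figure D1:**
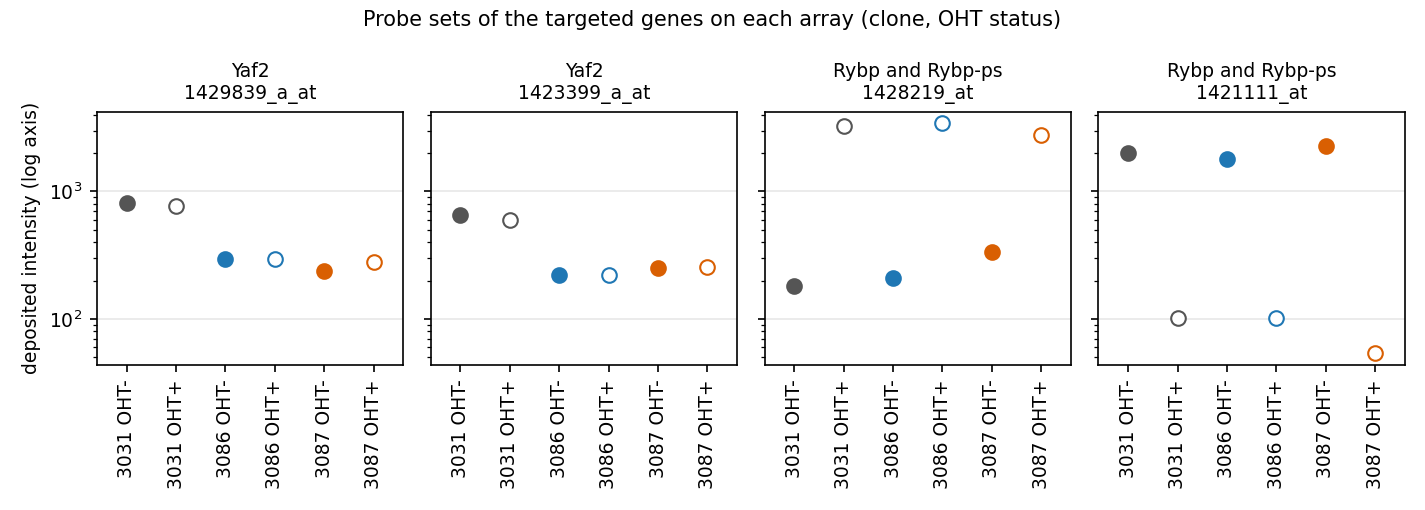
Deposited intensity (log axis) of the Yaf2 and Rybp probe sets on each of the 6 arrays, named by clone and OHT status; filled points are OHT- and open points OHT+. The 4 Yaf2kd arrays of clones 3086 and 3087 lie below both arrays of clone 3031 on each Yaf2 probe set, and the Rybp probe sets follow OHT.

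The 6 arrays correlated with each other at 0.968 to 0.987 over the 10916 brighter genes defined below, so no array stood apart on these genes. At the same OHT status, clone 3086 correlated with clone 3031 at 0.987 (OHT-) and 0.984 (OHT+). It correlated with clone 3087 at 0.979 and 0.980, and clones 3087 and 3031 correlated at 0.976 in both states. By this measure the arrays did not group by Yaf2 status. Values were compared as log2 intensity for 18193 genes, each read at its brightest probe set. Genes with a mean under 110.0 on the 6 arrays, the lowest 40%, are called dim here: their median residual SD (log2) was 0.774, against 0.159 for the other 10916 genes, so the size of a difference from a dim group is uncertain. All 10 embryonic stem cell markers checked, such as Pou5f1 and Nanog, were above the limit on every array (1704 to 39830). Feeder fibroblasts or gelatin served as the culture surface, and which of them each sample had is not given. Of 7 defining fibroblast markers 3 (Col1a1, Col1a2 and Thy1) were above the limit on all arrays and Lum on none. The summed intensity of the 37 measured fibroblast markers ran from 50710 to 56690 on the Yaf2kd arrays and from 44270 to 45830 on the Yaf2wt arrays. The 3'/5' ratio of the Gapdh control probe sets, a sign of RNA quality, was 0.801 to 0.832 in Yaf2kd and 0.813 to 0.814 in Yaf2wt. For the beta-actin control it was 1.315 to 1.436 in Yaf2kd and 1.403 to 1.43 in Yaf2wt. The transferrin receptor control had ratios of 2.33 to 3.08 in Yaf2kd and 2.93 to 3.23 in Yaf2wt. In bulk RNA, fewer cells of a type and less RNA per cell cannot be told apart.

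Over all 18193 genes, 0 genes passed limma's test of the Yaf2 difference at an adjusted p of 0.05 (0% called), and 1877 had an unadjusted p under 0.05. The lowest adjusted p was 0.0603, shared by Yaf2, Acta1, Mettl16 and Taf1d. With the dim genes left out, 7 of 10916 genes passed (0.0641% called): 3 rose and 4 fell. Another fit took the clone, which in Yaf2kd is the replicate number, as a block. It set the mean of clones 3086 and 3087 against clone 3031, with OHT in the model. In this block fit 17 of 18193 passed (0.0934% called), 10 of them risen and 7 fallen. The error of that fit is the spread within clones only. Acta1, the gene of skeletal muscle alpha-actin, was at 857 and 573 in clone 3086 (OHT- and OHT+), 756 and 520 in clone 3087, and 377 and 236 in clone 3031. All 4 Yaf2kd arrays lay above both Yaf2wt arrays, and the log2 difference was 1.15 ± 0.14 (adjusted p = 0.0155 with dim genes left out, 0.0198 with the block). Mettl16, an RNA methyltransferase gene, was at 1047, 1208, 1106 and 1415 on the Yaf2kd arrays in the same order and at 590 and 661 in clone 3031. It rose by 0.93 ± 0.12 (adjusted p = 0.0317 and 0.0198 in those fits). Myl9, the gene of a regulatory light chain of smooth muscle and non-muscle myosin, was at 1405 to 1599 in Yaf2kd and 850 to 950 in Yaf2wt and rose by 0.77 ± 0.10 (adjusted p = 0.0446 and 0.0278).

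Taf1d, a subunit of the RNA polymerase I factor SL1, was at 1153, 1081, 1125 and 1358 on the Yaf2kd arrays and at 2061 and 2355 in clone 3031. It fell by 0.91 on the log2 scale (SE 0.11, adjusted p = 0.0317 with dim genes left out and 0.0198 with the block). These values are from its brightest probe set, with a mean of 1522. The next brightest Taf1d probe set, with a mean of 1270, went the other way (0.48 ± 0.16). The remaining Taf1d probe sets lay between -0.74 and -0.02. Nphs1, which encodes nephrin, was at 574 to 885 in Yaf2kd and 1449 to 1514 in Yaf2wt, with a difference of -0.97 ± 0.14 (adjusted p = 0.0446 and 0.0278). Slc25a40, a mitochondrial carrier gene, was at 2757 to 3646 and 5337 to 6251, with -0.88 ± 0.14 (adjusted p = 0.0446 and 0.0198). For all 7 genes the groups did not overlap, and both Yaf2kd clones differed from clone 3031 in the same direction.

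The block added 10 genes. Those that rose were Gapdhs, the glyceraldehyde-3-phosphate dehydrogenase of sperm (3.58), the isoprenoid and sterol enzyme genes Fdps (0.79) and Msmo1 (0.77), Krt8 (0.72), a keratin of simple epithelia, Tagln (0.72) and Acta2 (0.62), a calponin-family and an actin gene of smooth muscle, and the annexin gene Anxa2 (0.66). Those that fell were the splicing factor gene Luc7l2 (-0.85), the chromatin remodeller gene Atrx (-0.78) and Tasor (-0.70), a subunit of the HUSH silencing complex. Gapdhs was at 68.0 to 155 in Yaf2kd and at 13.7 and 6.99 in Yaf2wt, so its size is uncertain, since Yaf2wt is dim. Atrx was at 5990, 6532, 4090 and 5617 on the Yaf2kd arrays and 8573 and 10380 in clone 3031. Leaving out single arrays gave 0 calls in 5 of 6 cases and 64 without the Yaf2kd OHT- array of clone 3086.

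**Figure D2:**
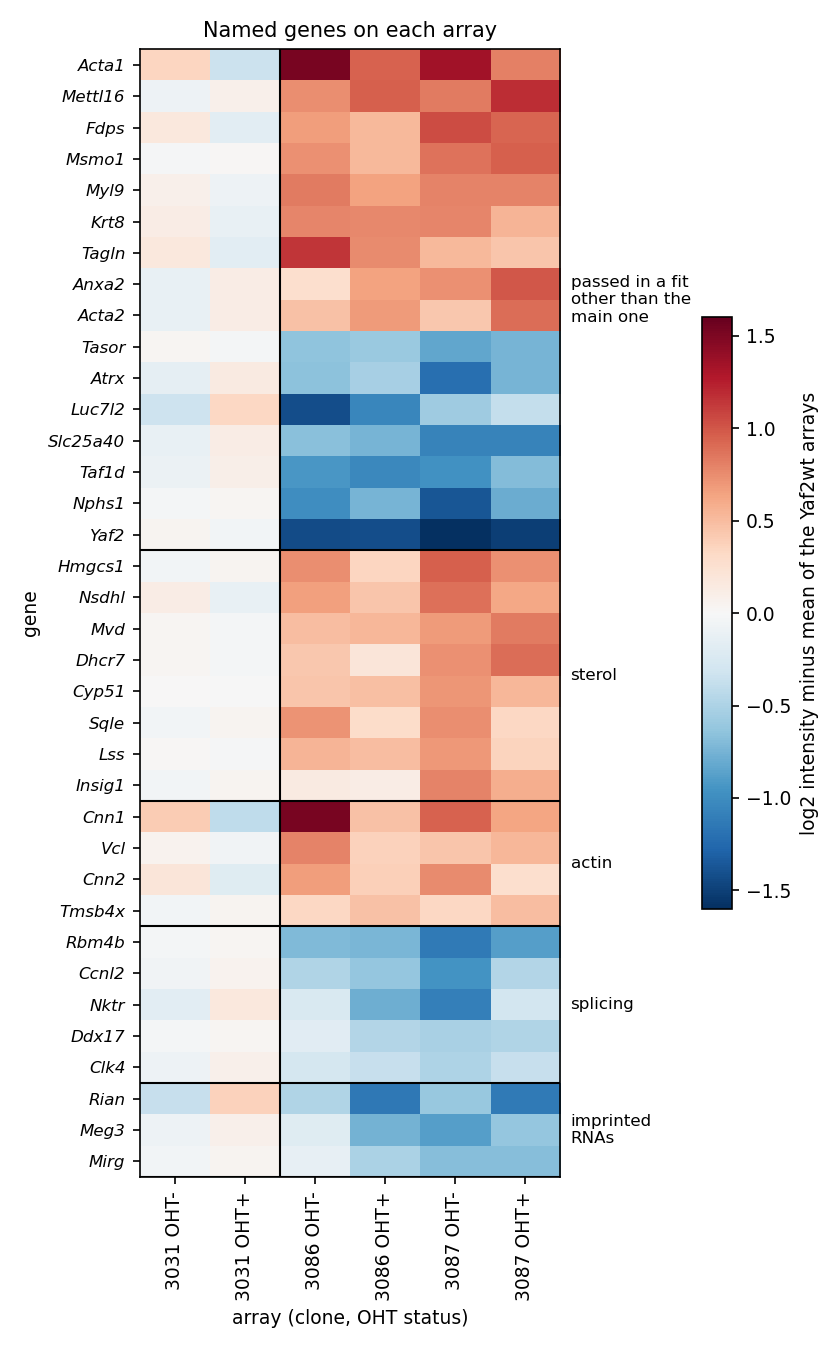
Log2 intensity minus the mean of the 2 Yaf2wt arrays, shown by colour for named genes (rows) on the 6 arrays (columns), with the gene groups at the right. The 4 Yaf2kd columns share their colour for nearly every gene, and Luc7l2 is lower in clone 3086 than in clone 3087.

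The Yaf2kd clones were also compared one by one, each with clone 3031 as the shared control. Clone 3086 differed in 2 genes (0.011% called), Luc7l2 (-1.23 ± 0.12, adjusted p = 0.0229) and Tagln (0.95 ± 0.11, adjusted p = 0.0498). Clone 3087 differed in 30 genes (0.165% called), 14 of them risen, with Fdps (0.99 ± 0.10) and Slc25a40 (-1.07 ± 0.11) at the lowest adjusted p of 0.0188 and Yaf2 at -1.62 ± 0.18 (adjusted p = 0.0202). Between the Yaf2kd clones 0 genes passed over all genes (0% called, 1561 at an unadjusted p under 0.05), and 11 passed with the dim genes left out. Among the 10916 genes above the dim limit, 70 differed by more than 1 (log2) between clones 3086 and 3087. Against clone 3031 this held for 22 genes in clone 3086 and 98 in clone 3087. It held for 13 genes between Yaf2kd and Yaf2wt, a difference in which the Yaf2kd clones are averaged. Yaf2 itself was at -1.43 in clone 3086 and -1.62 in clone 3087 against clone 3031, and differed by 0.20 ± 0.18 between the Yaf2kd clones (adjusted p = 0.783).

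Taken by OHT status in a model of the 4 groups, the Yaf2 difference called 0 genes without OHT (0% called, 812 at an unadjusted p under 0.05) and 0 with OHT (0% called, 1028). Each side rests on 2 Yaf2kd arrays and a lone Yaf2wt array that is assumed to vary like the Yaf2kd arrays. The difference between these effects passed for 0 genes (0% called, 409 at an unadjusted p under 0.05). Yaf2 was at -1.63 ± 0.26 without OHT and -1.42 ± 0.26 with it. Rgcc, a regulator of the cell cycle, was at 171 and 291 in the OHT- arrays of the Yaf2kd clones against 159 in clone 3031, and at 509 and 685 in their OHT+ arrays against 148 (log2 0.49 and 2.00, a difference that did not pass, adjusted p = 1).

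The groups of genes are described by how many members above the dim limit had all 4 Yaf2kd arrays on one side of both Yaf2wt arrays. Among all 10916 such genes this held for 1410 with Yaf2kd higher (12.9% called) and 991 with Yaf2kd lower (9.08% called), and the median log2 difference of all of them was 0.03. These counts carry no test.

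Several genes of the actin cytoskeleton and of contraction were higher in Yaf2kd. From a list of actin and serum response factor (SRF) target genes drawn up after the values were seen, 17 of 40 members lay higher without overlap and 0 lower, and the median was 0.22. Their leading members were Acta1, Cnn1 (0.89 ± 0.20), a calponin gene of smooth muscle, Myl9 and Tagln. Cnn1 was at 671, 324, 451 and 364 on the Yaf2kd arrays and at 310 and 177 in clone 3031, so the OHT- array of clone 3086 was the highest and the Yaf2wt OHT+ array the lowest. Tagln was at 5705 and 4352 in clone 3086, 3698 and 3517 in clone 3087, and 2891 and 2307 in clone 3031. Cnn2, another calponin gene, was at 2389 to 3340 against 1736 to 2258 (0.52 ± 0.09), and Vcl, the gene of the focal adhesion protein vinculin, at 2665 to 3604 against 1996 to 2150 (0.53). Tmsb4x, the gene of an actin-monomer-binding thymosin, was at 13060 to 14520 against 10060 to 10650 (0.41 ± 0.08). Srf itself was at 0.12 and overlapped, and the cytoplasmic actin gene Actb was at 0.07. Acta1 and Myl9 did not pass over all genes, and both passed with dim genes left out and with the block. They are shown because both also carry a CArG box, the letters that SRF is known to bind, in the 250 bases before their start. These stretches are from RefSeq promoters of GRCm38.p6, 5′ to 3′ on the gene's strand, with the match in capitals.
Acta1 (chr8:123894776-123895025, minus strand): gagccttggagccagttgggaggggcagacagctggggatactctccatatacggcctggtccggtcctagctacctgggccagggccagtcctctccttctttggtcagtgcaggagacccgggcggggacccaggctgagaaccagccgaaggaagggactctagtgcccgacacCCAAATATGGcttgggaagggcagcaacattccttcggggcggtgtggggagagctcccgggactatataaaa
Myl9 (chr2:156775214-156775463, plus strand): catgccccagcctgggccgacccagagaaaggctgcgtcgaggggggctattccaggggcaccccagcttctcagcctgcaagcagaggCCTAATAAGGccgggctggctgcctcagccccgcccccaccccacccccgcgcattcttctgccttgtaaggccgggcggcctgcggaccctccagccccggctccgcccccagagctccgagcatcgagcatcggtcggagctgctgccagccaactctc

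The CArG box reads the same on both strands, so each match counts once. It lay in 11 of 48 promoters (22.9%) of the 38 listed actin genes that had one, belonging to Acta1, Actc1, Actg1, Cnn2, Fhl1, Fhl2, Myl6, Myl9, Srf and Vcl, and in 1.47% of all 32851 promoters. The list was made of known SRF targets, so that share is a description of the list. The median log2 difference of those 10 genes was 0.44. None of the 19 promoters of the sterol list or the 49 of the splicing list held the box. At 1.47% of all promoters, lists of that size are too small for this to mark a contrast.

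Keratins and other genes of simple epithelia were higher as well. In a list made after the values were seen, 8 of 20 members lay higher without overlap and 0 lower (median 0.29). Krt8 was at 1827, 1805, 1825 and 1549 on the Yaf2kd arrays and at 1155 and 980 in clone 3031 (0.72 ± 0.10). Its partner Krt18 was at 3954 to 5630 against 2973 to 3740 (0.51 ± 0.09), and Krt19, another simple-epithelium keratin, at 301 to 488 against 184 to 203 (0.98 ± 0.21). The annexin genes Anxa1 (0.60 ± 0.12) and Anxa2 (0.66 ± 0.14) did not overlap either. Of 29 fibroblast markers above the limit 11 lay higher and 0 lower (median 0.34), with S100a4 at 0.92 ± 0.33 and the collagen gene Col1a1 at 0.64 ± 0.25, which overlapped. Pdgfra, a receptor of fibroblasts that is dim in Yaf2kd, was at 47.6 to 90.2 against 96.0 to 140 (-0.68 ± 0.41), and at 0.21 on the mean of its probe sets. Tagln and Acta2 are members of both this list and the actin list. The part that feeder or differentiated cells have in the actin, keratin and fibroblast values was not tested.

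Genes of sterol synthesis lay higher in both Yaf2kd clones. Of 20 members above the limit 15 were higher without overlap and 0 lower, and all 20 had a difference above 0, with a median of 0.43. The median was 0.36 for clone 3086 and 0.52 for clone 3087 against clone 3031, and 0.51 without OHT and 0.44 with it. Fdps, which makes farnesyl diphosphate, was at 3980 and 3613 in clone 3086, 5196 and 4803 in clone 3087 and 2821 and 2237 in clone 3031 (0.79 ± 0.14, adjusted p = 0.183 over all genes and 0.0198 with the block). Msmo1, a sterol C4-methyl oxidase gene, was at 2488 to 3357 against 1703 to 1760 (0.77 ± 0.12). Hmgcs1, the cytosolic synthase that makes HMG-CoA, was at 6477 and 4933 in clone 3086, 7530 and 6436 in clone 3087 and 3766 and 4006 in clone 3031 (0.69 ± 0.13). Nsdhl (0.65 ± 0.12), Mvd (0.63 ± 0.14), Dhcr7 (0.56 ± 0.18), Cyp51 (0.54), Sqle (0.52 ± 0.12) and Lss (0.52), all enzymes between mevalonate and cholesterol, did not overlap, and the mean of the Cyp51 probe sets was at -0.015. Insig1, which holds the sterol sensor in the endoplasmic reticulum, was at 0.41 ± 0.18 without overlap, and the regulator gene Srebf2 was at 0.23 ± 0.16 with overlap. Fdps and Msmo1 were the 2 members that passed with the block, and 0 passed over all genes.

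The sterol promoters were searched in the same 250-base window on both strands for TCACNCCAC, a form of the element that sterol regulatory element-binding proteins are known to bind, and for CCAAT, the letters bound by NF-Y. CCAAT lay in 16 of 19 promoters of the 16 matched sterol genes (84.2%) and in 33.9% of all 32851 promoters. The median log2 difference of the sterol genes with CCAAT was 0.43, as for the whole list. In the splicing list, which lay lower, CCAAT was in 24 of 49 promoters (49.0%). TCACNCCAC lay in 1 of the 19 sterol promoters, that of Hmgcs1, and in 1.05% of all promoters. The Hmgcs1 promoter is shown because it holds both, the first in capitals as TCACCCCAC and 3 matches of CCAAT on the other strand as ATTGG.
Hmgcs1 (chr13:119690101-119690350, plus strand): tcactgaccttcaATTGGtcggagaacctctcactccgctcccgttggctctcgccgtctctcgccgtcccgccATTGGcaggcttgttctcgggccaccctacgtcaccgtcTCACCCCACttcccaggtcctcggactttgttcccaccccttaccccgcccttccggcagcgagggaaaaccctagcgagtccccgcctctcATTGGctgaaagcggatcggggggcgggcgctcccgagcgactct

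Genes of fatty acid synthesis lay higher in 6 of 15 cases and lower in 0, with a median of 0.32. The desaturase gene Scd1 was at 767 to 1046 against 553 to 593 (0.61 ± 0.14), the acyl-CoA synthetase gene Acsl3 at 1074 to 1391 against 763 to 868 (0.55 ± 0.11), and the synthase gene Fasn at 2206 to 2878 against 1638 to 2081 (0.41 ± 0.11). The elongase gene Elovl6 went the other way (-0.48 ± 0.16) and overlapped. Of 30 hypoxia and glycolysis genes 15 lay higher and 0 lower (median 0.20). The leading members were Egln3, an oxygen-sensing hydroxylase (0.67 ± 0.21), Ankrd37 (0.64 ± 0.20), Car9, a carbonic anhydrase that is dim in Yaf2wt (0.61 ± 0.31), and Adm, which encodes adrenomedullin (0.52 ± 0.19). Among the bright enzymes of glycolysis, the lactate dehydrogenase gene Ldha was at 14090, 14090, 15610 and 14360 on the Yaf2kd arrays and 11050 and 10120 in clone 3031 (0.46 ± 0.08). Pfkl was at 4788 to 4992 against 3589 to 3930 (0.39 ± 0.08), Slc2a1, the main glucose transporter gene, at 0.39 ± 0.10, and Tpi1 at 0.28 ± 0.09. Pgk1 was at 0.13 ± 0.13 and overlapped. None of these genes passed over all genes or with the block.

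Genes of splicing factors and CLK kinases lay lower. In a list made after the values were seen, 19 of 38 members were lower without overlap and 0 higher, 36 of 38 had a difference below 0, and the median was -0.26. Luc7l2 was at 2538 and 3309 in clone 3086, 4609 and 5237 in clone 3087 and 5426 and 8555 in clone 3031 (-0.85 ± 0.23). Rbm4b was at 276 to 370 against 590 to 620 (-0.86 ± 0.17), and Ccnl2, a cyclin tied to splicing, at 2043 to 2869 against 3816 to 4127 (-0.63 ± 0.13). Nktr was at -0.60, Ddx17, an RNA helicase gene, at -0.41 ± 0.11, and the kinase genes Clk4 and Clk1, which phosphorylate splicing factors, at -0.38 and -0.26. Of these only Luc7l2 passed with the block (adjusted p = 0.0215), and it was lower in clone 3086 (-1.23) than in clone 3087 (-0.47). The median of the list was -0.20 without OHT and -0.34 with it.

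Subunits of the Polycomb complexes other than Yaf2 lay on both sides of 0. Of 20 core and variant PRC1 genes above the limit, Yaf2 included, 1 lay higher and 3 lower (median -0.01). Rnf2, the main catalytic RING subunit, was at 3515, 3486, 3154 and 2959 on the Yaf2kd arrays and 3826 and 3875 in clone 3031 (-0.24 ± 0.10), and it was at 0.059 when all its probe sets were averaged. Pcgf1 was at 0.29 ± 0.14, and Ring1 (0.11 ± 0.20) and Bmi1 (-0.20 ± 0.24) overlapped. Among 7 canonical PRC1 genes Phc1 was lower, at 10270 to 13990 against 15360 to 17240 (-0.44 ± 0.12), Cbx2 higher, at 510 to 613 against 384 to 389 (0.50 ± 0.14), and Cbx7 at -0.54 ± 0.20 with overlap. Among 13 PRC2 genes Suz12, a core subunit, was at 3645, 4076, 3559 and 3979 against 4696 and 6167 (-0.50 ± 0.09), Mtf2 was at -0.36 ± 0.10 with overlap, and Phf19 was at 0.37 ± 0.20 on its brightest probe set and at -0.31 on the mean of its probe sets. Among 10 genes of PRC1.6, the variant complex that silences germ-line genes, the 1 higher gene was Cbx3, at 150 to 195 against 94.1 and 129 (0.60 ± 0.26), and the 1 lower gene Mga (-0.30 ± 0.09). Of all these genes only Yaf2 passed with the dim genes left out or with the block.

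Known targets of Polycomb repression showed no common direction above the dim limit. Over all measured members, dim ones included, the median was 0.15 for Polycomb-bound transcription factors and 0.19 for Hox genes. It was -0.06 for germline and meiosis genes and 0.07 for preimplantation and 2-cell genes, against 0.04 for all genes. Of 54 measured Polycomb-bound transcription factor genes 11 were above the limit, 1 of them higher without overlap (Irx3, 186 to 267 against 139 to 151, 0.58 ± 0.24) and 0 lower. Their median was -0.04, but 0.15 for clone 3086 and 0.10 for clone 3087 taken one by one against clone 3031, so its sign differs between these summaries. Of 33 measured Hox genes 2 were above the limit: Hoxa5 was at 343, 233, 333 and 441 on the Yaf2kd arrays and 158 and 187 in clone 3031 (0.94 ± 0.26), while Hoxa9 was at -0.02 ± 0.39. Of 30 germline and meiosis genes 2 lay higher and 3 lower, with a median of -0.01. Sycp3, a synaptonemal complex gene, was at 2751 to 3765 against 4116 to 4588 (-0.39 ± 0.09), and Sohlh2 at 0.50 ± 0.21 with overlap. Of 6 preimplantation and 2-cell genes none was free of overlap (median -0.29). Of these, AF067061 had the largest difference (-1.61 ± 0.45): it was at 11.95 and 38.6 on the OHT- arrays of the Yaf2kd clones against 70.9 in clone 3031, and at 256 and 395 on the OHT+ arrays against 902.

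**Figure D3:**
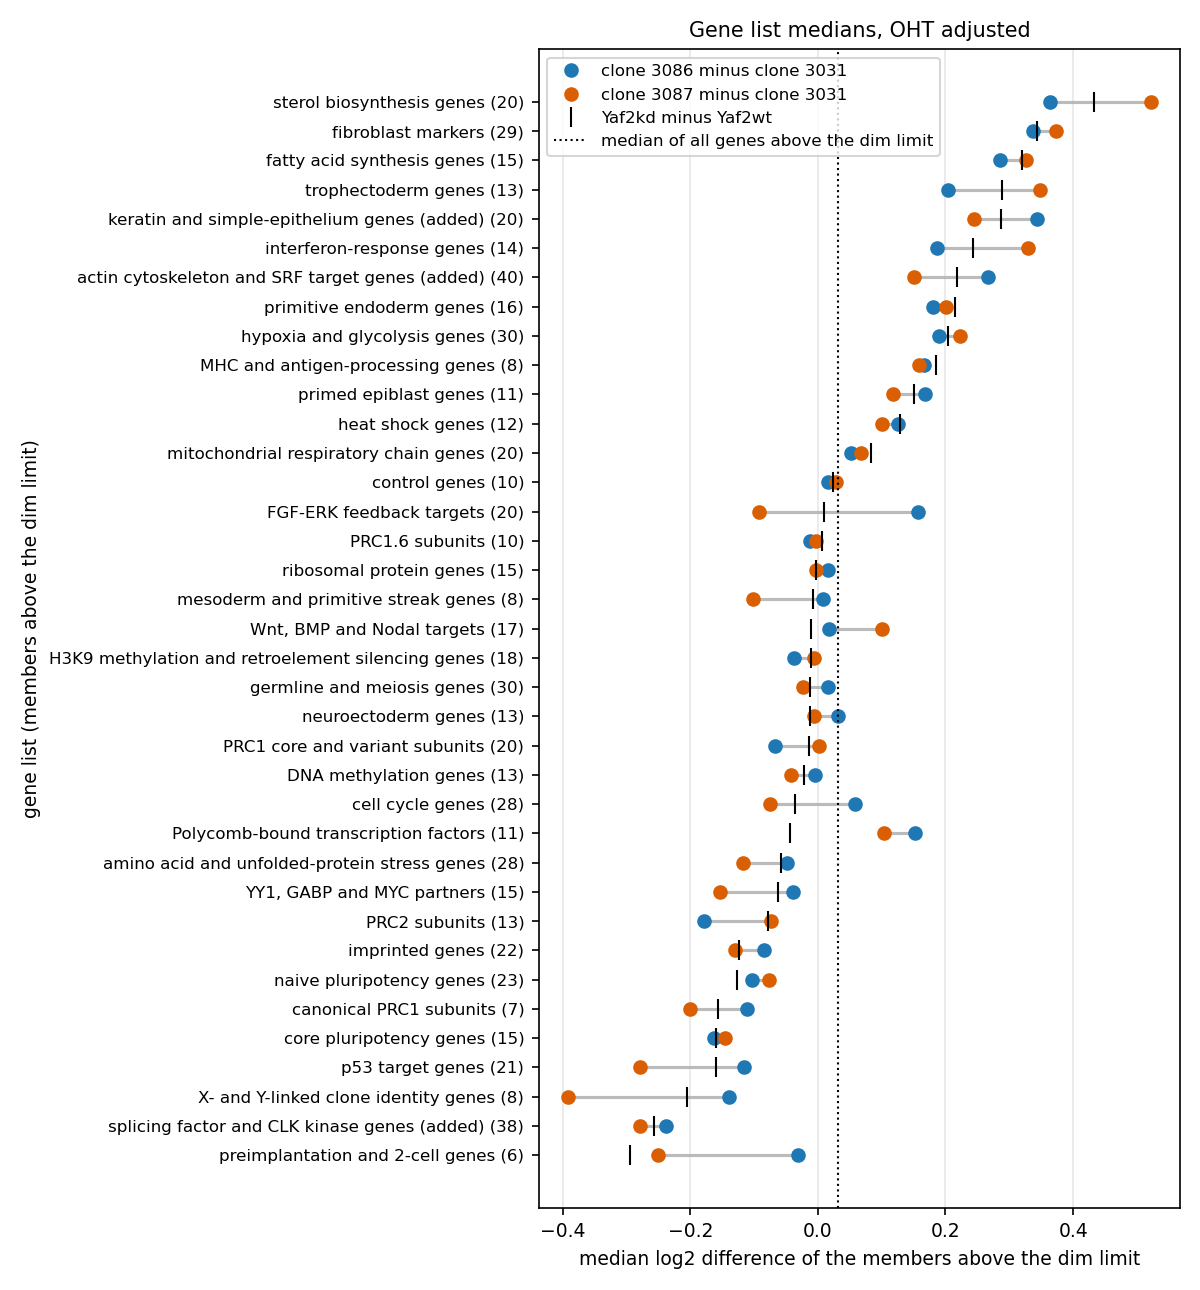
Median log2 difference of the members above the dim limit for each gene list with at least 6 such members, for clone 3086 (blue) and clone 3087 (orange) against clone 3031, with a black tick for the OHT-adjusted Yaf2 difference and a dotted line at the median of all such genes (0.03). The sterol list lies highest in both clones and the splicing list below -0.2 in both, which share clone 3031 as control.

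Pluripotency genes lay slightly below the median of all genes. Of 15 core pluripotency genes 0 were free of overlap (median -0.16), although their summed intensity was 93420 to 95150 in Yaf2kd and 101200 to 101500 in Yaf2wt. Pou5f1 was at 0.03 ± 0.14, Sox2 at -0.15 ± 0.08 and Nanog at -0.25 ± 0.09. Of 23 naive pluripotency genes 0 lay higher and 2 lower (median -0.13). Klf4 was at 1704 and 4628 in clone 3086, 2008 and 2723 in clone 3087 and 3104 and 5442 in clone 3031 (-0.68 ± 0.18), and Tbx3 at -0.70 ± 0.15. Dppa3, a gene of germ cells and the early embryo, went the other way (0.51 ± 0.12) with overlap. For Klf4 and Tbx3 the OHT+ array was above the OHT- array in every clone, and within each OHT state both Yaf2kd arrays lay below clone 3031.

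Lineage genes were mixed. Of 16 primitive endoderm genes above the limit 4 lay higher (median 0.22), with the endocytic receptor gene Cubn at 0.55 ± 0.24, while of its 7 defining genes Dab2 was above the dim limit on all 6 arrays (368 to 515, log2 0.22), Gata4 on 5 (log2 0.35), Gata6, Sox17 and Sox7 on 1 each and Afp and Ttr on none. Of 13 trophectoderm genes 3 lay higher (median 0.29), with Krt8 and Krt18 among them and the homeobox gene Esx1 at 0.60 ± 0.19 with overlap, while of its 6 defining genes Krt7 was above the limit on all arrays (167 to 401, log2 near 0), Hand1 on 3 (log2 0.45) and Cdx2, Elf5, Gata3 and Tpbpa on none. Of 13 neuroectoderm genes 2 lay higher (median -0.01): Stmn2, a tubulin-binding stathmin gene, was at 5568 to 6753 against 4579 to 4747 (0.43 ± 0.09). Of 8 mesoderm genes 0 lay apart (median -0.01). Hopx, a homeodomain-only gene outside these lists singled out after its value was seen, was at 369 to 522 against 246 to 258 (0.82 ± 0.19).

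Imprinted genes gave 4 of 22 lower and 1 higher (median -0.12). Those lower were Rian, Meg3 and Mirg, non-coding RNAs that lie side by side in the Dlk1-Dio3 region and come from the maternal copy, and Kcnq1ot1, the antisense RNA of another imprinted region. Meg3 was at 14400 and 9746 in clone 3086, 8874 and 10720 in clone 3087 and 15540 and 17310 in clone 3031 (-0.61 ± 0.17). Rian was at 1395 and 881 in clone 3086, 1272 and 884 in clone 3087 and 1500 and 2513 in clone 3031 (-0.84 ± 0.23), a gap of -0.17 without OHT and -1.51 with it. Mirg was at 851 to 1243 against 1328 to 1406 (-0.50 ± 0.16). Of 8 X- and Y-linked genes above the limit 5 lay lower and 0 higher (median -0.20). The X-linked demethylase gene Kdm5c was at 475 to 651 against 730 to 732 (-0.41 ± 0.17) on its brightest probe set, with a mean of 613.4. Its next brightest probe sets, with means of 612.9 and 564.9, were at 0.03 and 0.06, and its dimmer ones lay on both sides of 0. Xist, the RNA of the inactive X, was at 383 to 568 against 581 to 679 (-0.42 ± 0.18). The Xist difference was -0.056 without the Yaf2wt OHT+ array and -0.79 without the Yaf2wt OHT- array.

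Genes that methylate histone H3 at lysine 9 or silence retroelements lay lower in 6 of 18 cases and higher in 1, with a median of -0.01. Besides Atrx these included the zinc-finger gene Zfp932, at 1105 to 1420 against 1810 to 1818 (-0.60 ± 0.11), and Morc3 (-0.34 ± 0.10). Among 13 DNA methylation genes 2 lay lower and 0 higher, with the 5-methylcytosine oxidase gene Tet1 at -0.30 ± 0.11 and Tet2 at -0.52 ± 0.16 with overlap. Of 21 p53 targets 6 lay lower and 0 higher (median -0.16), with the apoptosome gene Apaf1 at 1197 to 1446 against 1753 to 1798 (-0.47 ± 0.11). The median of the p53 list was -0.12 for clone 3086 and -0.28 for clone 3087. The anti-apoptotic gene Bcl2l1, singled out after its value was seen, was at 685 and 608 in clone 3086, 993 and 1140 in clone 3087 and 476 and 473 in clone 3031 (0.80 ± 0.24). It passed in clone 3087 (1.16 ± 0.15, adjusted p = 0.0253) and was at 0.44 in clone 3086.

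Interferon-response genes lay higher in 3 of 14 cases and lower in 0 (median 0.24), with the chemokine gene Cxcl10 at 187 to 308 against 135 to 167 (0.70 ± 0.22) and the antiviral membrane gene Ifitm3 at 4508 to 6695 against 3433 to 4241 (0.60 ± 0.15). Of 12 heat shock genes 5 lay higher and 0 lower (median 0.13), with the co-chaperone gene Dnajb1 at 0.43 ± 0.11. Of 28 amino acid and unfolded-protein stress genes 3 lay higher and 6 lower (median -0.06): Herpud1, a gene of the unfolded-protein response, was at 0.58 ± 0.15, and Nupr1, a stress-induced nuclear protein gene, at -0.65 ± 0.17, or at -0.21 without the Yaf2wt OHT- array and -1.09 without the Yaf2wt OHT+ array. The other lists above the limit had medians between -0.06 and 0.19. These were cell cycle genes (5 of 28 higher, 2 lower), FGF-ERK feedback targets (3 of 20 higher, 1 lower, the ETS factor Etv4 at -0.71 ± 0.22), Wnt, BMP and Nodal targets (1 of 17 higher), primed epiblast genes (0 of 11), MHC and antigen-processing genes (0 of 8), YY1, GABP and MYC partners (1 of 15 higher, 3 lower), mitochondrial respiratory chain genes (3 of 20 higher, 1 lower), ribosomal protein genes (3 of 15 higher) and control genes (1 of 10 higher).

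By the size of the difference alone, the highest genes free of overlap were Gapdhs (3.58), Fndc5 (1.85), Siglecg (1.79), Adcyap1r1 (1.63), Prrt1 (1.52), Spns3 (1.43) and Habp2 (1.28), all of them dim in Yaf2wt, and then Rgcc (1.24 ± 0.34). The lowest were Yaf2, Helz2 (-1.38), Sox2ot (-1.33), Shcbp1l (-1.12), Map6d1 (-1.09), Gm13306 (-1.07), Notch4 (-1.06) and E030024N20Rik (-0.99), all but Yaf2 dim in Yaf2kd, so their sizes are uncertain. Sox2ot, a non-coding RNA that overlaps Sox2, was at 43.4 to 73.1 against 140 to 149, while Sox2 itself was at -0.15. Leaving out single arrays gave 0.52 to 3.18 for Fndc5, 0.88 to 2.71 for Siglecg and 0.83 to 2.43 for Adcyap1r1, but 3.31 to 3.84 for Gapdhs. Other probe sets, all dim, were at 0.01 for Fndc5, -0.04 for Prrt1, 0.44 and 1.28 for Adcyap1r1 and 0.31 for Habp2. The other Rgcc probe set was at 0.85. Of these largest differences only Yaf2, Rgcc and E030024N20Rik were in the fit without dim genes, and of them only Yaf2 passed. The other genes had a mean under the limit and are named because the mean of their brighter group was above it. With the block only Yaf2 and Gapdhs passed. The nearest measured neighbours of Yaf2 above the dim limit did not follow it: Gxylt1 on one side was at -0.11 ± 0.12, and Zcrb1, Pphln1 and Prickle1 on the other at 0.23 ± 0.12, 0.11 ± 0.15 and 0.65 ± 0.22, all with overlap.

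Chromosome 8 stood apart from the other chromosomes. The median of its 595 genes above the dim limit was 0.12 in Yaf2kd against Yaf2wt, while the medians of the other chromosomes lay between -0.01 and 0.06. Of its genes 24.7% lay higher without overlap (8.95% to 15.5% on the others) and 5.21% lower. Against clone 3031 the median was 0.15 in clone 3086 (0.001 to 0.05 on the other chromosomes). In clone 3087 it was smaller, 0.07 (-0.05 to 0.05 on the others). In 10 blocks of about 60 neighbouring genes along the chromosome, the medians of Yaf2kd against Yaf2wt lay between 0.05 and 0.15. By clone the blocks ran from 0.11 to 0.18 in clone 3086 and from 0.01 to 0.14 in clone 3087. Relative to each gene's mean over the arrays, the chromosome's median was -0.04 and -0.09 in clone 3031 (OHT- and OHT+), 0.08 and 0.06 in clone 3086, and near 0.01 in both arrays of clone 3087. Acta1, Msmo1, Mvd, Ankrd37, Dnajb1, Herpud1 and Irx3 lie on chromosome 8, and the part of the chromosome in their values was not tested. Without its genes the median was 0.41 for the sterol list (13 of 18 higher) and 0.21 for the actin list (15 of 38 higher). Chromosome 14 had the largest median between the Yaf2kd clones, 0.11 for clone 3086 minus clone 3087, where the other chromosomes lay between 0.01 and 0.05.

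**Figure D4:**
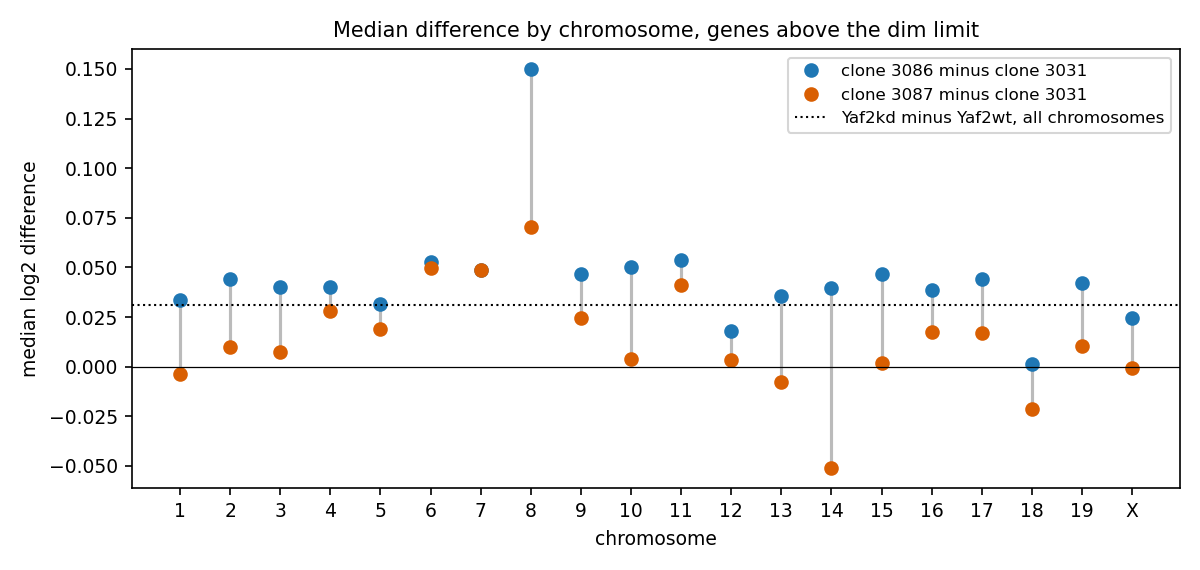
Median log2 difference of the genes above the dim limit on each chromosome, for clone 3086 (blue) and clone 3087 (orange) against clone 3031; the dotted line is the median Yaf2 difference over all chromosomes (0.03). Chromosome 8 is the highest in both clones.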

How the data were processed

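RNA of 6 mouse embryonic stem cell cultures was measured on Affymetrix arrays. The authors deposited probe-set intensity values on a linear scale. RMA and the Affymetrix program Expression Console are named in the submitters' processing notes, without a role or version. Every array holds the same sorted values (0.140 to 45795, median 102), as quantile normalization leaves them, so differences in total signal between arrays are removed. The series text names a 430A 2.0 array, while the table holds 45101 probe sets. Of these, 34958 have 1 gene symbol in the platform annotation, 932 several and 9211 none, and 99.4% of the annotated identifiers matched the mouse gene table of GRCm38.p6.

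The log2 of the deposited intensity was taken with no pseudocount. Each of 18193 genes was read at its brightest probe set and fitted with lmFit and eBayes (intensity trend) of limma 3.58.1 in R 4.3.3, on Yaf2 status and OHT, with 3 residual degrees of freedom, and called at 0.05 after Benjamini-Hochberg adjustment over the 18193 genes. Clones were compared in a model of clone and OHT, and the Yaf2 difference by OHT status in a model of 4 groups, each with 2 residual degrees of freedom. Precision is limited by the number of arrays. The scripts were tested on simulated data.

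Same-numbered Yaf2kd arrays come from the same clone, per the labels, so the number pairs them; their deviations from the group means correlated at 0.134. The block fit is therefore given beside the main one. It sets the mean of the Yaf2kd clones against the Yaf2wt clone in the model of clone and OHT.

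Named genes were Yaf2 and the Rybp probe sets, the 8 largest differences in each direction without overlap, members of each list with the largest differences (up to 4) and the 3 measured genes on each side of Yaf2; others were singled out after their values were seen, among them those called in another fit. The members, the 35 gene lists (764 of 846 entries measured) and the intensity trend were chosen with earlier results of these data known, and 3 lists were added later. Promoters are RefSeq sequences of GRCm38.p6, searched over the 250 bases before the start. The alternatives were other variance, filter, probe set, normalization, pseudocount, block, covariate and clone choices, and leaving out each array.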

Additional observations from a re-analysis of the deposited data

Results flagged for a closer look

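For 9 of the 121 genes whose values are given, 1 of the 4 Yaf2kd arrays lay so far from the other 3 that its gap to the nearest of them, as a share of their log2 range, was above Dixon's critical value. That is 7.44% of the genes, and chance gives about 1 in 20. The 4 arrays hold both OHT states, so a gap can follow clone, OHT or a single culture. The Yaf2kd OHT- array of clone 3087 was the lowest for Anxa1 (1990 against 2632 to 2662, gap 0.961 of the range), Gxylt1 (710 against 845 to 861, 0.900) and Tet1 (4244 against 5528 to 5669, 0.913), and the highest for Tpi1 (11750 against 9957 to 10170, 0.873). The OHT+ array of clone 3087 was the highest for Pgk1 (28040 against 19820 to 20930, 0.843) and Tet2 (1290 against 799 to 851, 0.870), and the lowest for Krt8 (1549 against 1805 to 1827, 0.927). In clone 3086, the OHT+ array was the lowest for Hoxa9 (66.3 against 154 to 170, 0.898) and the OHT- array the highest for Ddx17 (14250 against 11230 to 11650, 0.845). No gene passed the test of the difference between the Yaf2 effects with and without OHT.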

How the results depend on the processing

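The count of genes called, 0 over all genes, stayed at 0 with no intensity trend (1311 at an unadjusted p under 0.05), with dim genes left out and no trend, over all probe sets, with log2(value + 50), with clone means, without OHT as a covariate and in the 4-group model. It became 7 with dim genes left out, 1 (Yaf2) with the mean of probe sets and with cyclic loess, 4 (Yaf2, Acta1, Mettl16 and Taf1d) with the clone as a random block, 17 with the replicate block, 611 without clone 3086 and 191 without clone 3087. The last 2 fits have 1 residual degree of freedom. In the random block fit the estimated correlation of the arrays of 1 clone was -0.086. With a value below 0, that fit did not allow for arrays of 1 clone being alike. With dim genes left out and the replicate block, a pair of choices made after seeing the data, the count became 160 (62 higher). Leaving out each array gave 0 to 64. The replicate block changed no call other than the 17. Between clones 3086 and 3087 the count of 0 became 11 with dim genes left out and 3 with the trend dropped as well. Among 121 genes and 21 alternatives 17 values changed sign, for 11 genes. With the mean of probe sets these were Cyp51 (-0.015), Pdgfra (0.21), Phf19 (-0.31) and Rnf2 (0.059). Hoxa9 was at 0.0097 with log2(value + 50) and 0.30 without clone 3086, and Pou5f1 at -0.093 without clone 3087. Leaving out single arrays changed the sign of 7 genes, with ranges of -0.023 to 0.16 for Actb, -0.49 to 0.096 for Bmi1, -0.31 to 0.31 for Hoxa9, -0.088 to 0.15 for Pou5f1, -0.046 to 0.26 for Pphln1, -0.033 to 0.49 for Srebf2 and -0.086 to 0.33 for Srf. In all, 30 of the 121 genes changed sign or moved by over 1.5 times when 1 array was left out; besides Xist and Nupr1 these include Sqle (0.27 to 0.77), Ifitm3 (0.31 to 0.88), Cubn (0.32 to 0.78), Insig1 (0.25 to 0.53) and Etv4 (-1.04 to -0.37). List medians lay within 0.36 to 0.52 for sterol genes, 0.15 to 0.27 for actin genes, 0.31 to 0.39 for fibroblast markers and -0.34 to -0.20 for splicing genes, while the median of Polycomb-bound factors ran from -0.13 to 0.17, over all alternatives run. Of 162 other probe sets of the named genes above the dim limit 143 had the same direction. The cause of these changes was not tested.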
